A study of Mus musculus with 10 samples.

Results

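Sult1a1 and 7 glutathione transferases (Gstm1, Gstm2, Gstm4, Gstm5, Gstm7, Gsta4 and Mgst1) were followed across 10 microarrays of mouse blood stem and progenitor cells with and without the histone methyltransferase Ezh2. The genes were found through the RefSeq accession of each probe, which gave 8 of 20972 named genes and 15 of 55681 probes. Sult1a1 and Gstm2 had been chosen by the size of their measured falls between WT and Ezh2-deleted cells, so their differences between genotypes are descriptions with no test. The other 6 genes were taken as their relatives. All 8 were detected: Gstm1, Gstm2, Gstm4, Gstm5 and Mgst1 were well above background, by the scanner software's call, on all 10 arrays, Sult1a1 on 9, Gsta4 on 8 and Gstm7 on 5.

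The cells were LSK cells, the bone marrow fraction without lineage markers and with Sca-1 and Kit that holds the blood stem cells, from C57BL/6 mice that had received a transplant and tamoxifen. They had been sorted for CD45.2, and Cy3-labelled RNA of each sample was hybridised to an Agilent one-colour array. Deleted samples (KO) had the genotype Cre-Ert;Ezh2fl/fl, in which tamoxifen switches on a Cre recombinase that removes the floxed Ezh2 alleles, and controls (WT) had Cre-Ert alone. At 3 months after transplantation there was 1 KO and 1 WT array. At 9-12 months there were 3 KO arrays from mice labelled with MDS/MPN (overlapping myelodysplastic and myeloproliferative disease), 2 with MDS (myelodysplastic syndrome), 1 with disease undetermined, 1 KO array labelled as mixed, and 1 WT array. The labels of 2 MDS/MPN samples carry further abbreviations, TC for replicate 1 and CMMoL for replicate 3, which the labels do not spell out. The label of the mixed array names MDS, MDS/MPN and MDS/MPN with TC. Whether its RNA came from the same mice as other KO arrays is not given, and fits over all arrays count it as a separate KO array. Neither the ages of the mice nor the number of mice behind the 3-month, mixed and WT samples is given per array, and the design text names n = 3 at 3 months. P values therefore measure only the spread between these arrays.

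The 3-month arrays lay on 1 slide (slide 1) and the others on a second (slide 2), so time and slide cannot be told apart. The deposited value table exchanges the time labels of the slide 1 and slide 2 WT arrays, and likewise of the slide 1 KO and the mixed KO arrays, relative to the scanner files. Arrays are therefore named by slide, and contrasts that pool both slides do not depend on which source is right. Between 32.55% and 47.54% of probes were well above background on an array. The array of MDS/MPN replicate 2 stood apart, with a 75th percentile of 301.7 intensity units against 78.74 to 144.8 on the other arrays. The Ezh2 probe gave log2 2.13 to 3.35 on the 8 KO arrays, against 2.13 on the WT array of slide 1 and 2.63 on that of slide 2, so it did not separate the genotypes. The probe sequence is not in the files used here, and whether the probe lies in the deleted part of Ezh2 is not known.

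Sult1a1 is a cytosolic sulfotransferase, which moves a sulfate group from the donor PAPS onto phenols and other small molecules. Glutathione transferases couple glutathione to reactive electrophiles. Both belong to the conjugating phase of detoxification, in which the modified compounds become more soluble and can be exported by membrane pumps. The Gstm genes encode the mu class and form a cluster on mouse chromosome 3, Gsta4 is an alpha-class enzyme that conjugates products of lipid peroxidation, and Mgst1 is a membrane-bound enzyme of the endoplasmic reticulum and the mitochondrial outer membrane. Ezh2 is the catalytic subunit of Polycomb repressive complex PRC2 and places methyl groups on histone H3, a mark found largely at silent genes with CpG-rich promoters.

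The start-site windows of these genes differed in CpG content, and those of Sult1a1 and Gstm2 are shown beside those of 2 relatives whose signals were more alike in both genotypes. RefSeq windows of 300 bases on GRCm38.p6, 250 before and 50 after an annotated start, were at hand for 7 of the 8 genes, 11 windows in all, with none for Gsta4. The printed ones are Sult1a1 (chr7:126676369-126676668, minus strand), Gstm2 (chr3:107986371-107986670, minus strand), Gstm1 (chr3:108017924-108018223, minus strand, the first of its 2 windows) and Gstm5 (chr3:107895604-107895903, plus strand). They run 5′ to 3′ on the strand of the gene, and capitals mark matches, on either strand, to TGACNNNGC, the core of the antioxidant response element bound by NRF2, and to GCGTG, the core of the element bound by the aryl hydrocarbon receptor.
Sult1a1: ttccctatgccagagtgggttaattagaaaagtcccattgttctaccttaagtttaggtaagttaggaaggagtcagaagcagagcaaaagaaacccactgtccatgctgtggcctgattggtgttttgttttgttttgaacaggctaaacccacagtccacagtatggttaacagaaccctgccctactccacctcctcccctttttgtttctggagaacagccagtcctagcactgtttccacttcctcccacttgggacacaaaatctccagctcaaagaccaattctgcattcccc
Gstm2: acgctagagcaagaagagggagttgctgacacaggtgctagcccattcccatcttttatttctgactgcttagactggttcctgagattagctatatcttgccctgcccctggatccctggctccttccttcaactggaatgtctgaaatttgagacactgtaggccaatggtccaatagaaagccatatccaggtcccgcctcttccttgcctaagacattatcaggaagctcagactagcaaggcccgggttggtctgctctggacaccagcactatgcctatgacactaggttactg
Gstm1: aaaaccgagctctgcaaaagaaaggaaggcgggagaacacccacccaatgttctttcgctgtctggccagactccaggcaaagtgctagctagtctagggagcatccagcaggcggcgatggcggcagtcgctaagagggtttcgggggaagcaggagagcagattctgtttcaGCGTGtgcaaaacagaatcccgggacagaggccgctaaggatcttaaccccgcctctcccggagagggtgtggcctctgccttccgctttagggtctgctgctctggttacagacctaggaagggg
Gstm5: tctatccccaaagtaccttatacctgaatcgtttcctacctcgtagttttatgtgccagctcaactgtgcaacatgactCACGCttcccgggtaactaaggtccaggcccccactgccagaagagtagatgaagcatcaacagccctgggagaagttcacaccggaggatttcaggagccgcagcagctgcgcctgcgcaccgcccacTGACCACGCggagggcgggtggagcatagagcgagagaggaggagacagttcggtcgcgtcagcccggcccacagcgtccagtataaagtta

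The Sult1a1 window held 0 CpG dinucleotides, as did 5.433% of all 32817 RefSeq windows (1783 windows). It belongs to an annotated start inside the gene, which spans chr7:126672865-126690443 on the minus strand. No window at the outer 5′ end of Sult1a1 was at hand, so the CpG content there is not known. The Gstm2 window held 3, and 23.33% of all windows held fewer. Gstm1 held 14 in the printed window and 8 in the other, both Gstm4 windows held 14, and Gstm5 held 18, against a median of 7 over all windows. Sult1a1 and Gstm2 thus had the fewest CpG dinucleotides among the printed windows, although 1 of the 2 windows of Mgst1 held only 1. The windows of Gstm7, which was also lower on the KO array of slide 1, held 6 and 9. The printed windows were picked with the signals known, and a link between CpG content and signal was not tested. The antioxidant core was matched in 3 of the 11 windows (Gstm5, 1 of Gstm7 and 1 of Mgst1), against 12.38% of all windows. The aryl hydrocarbon core was also matched in 3 (Gstm5 and both overlapping windows of Gstm1), against 32.37% of all windows. In Gstm5, 1 of its 2 matches to GCGTG lay inside the match to TGACNNNGC. The printed Sult1a1 and Gstm2 windows held neither string, which says only that these letters are not in these windows.

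Sult1a1 was the most variable of the 8 genes, with a range of 8.9 on the log2 scale. Levels are given as log2 of the processed intensity over the 75th percentile of the array, so 0 is a signal equal to that percentile, and a level of 1 gene is not set against that of another. On slide 1, Sult1a1 stood at -2.48 on the KO array, against 5.43 on the WT array, that is 14.11 against 4071 intensity units. On slide 2 it stood at -0.83, -3.47 and -1.34 on the MDS/MPN arrays, 4.31 and 3.33 on the MDS arrays, -1.28 on the undetermined array and -1.43 on the mixed array, against 0.68 on the WT array. The MDS arrays and the WT array of slide 1 were thus high, the WT array of slide 2 was intermediate, and the other 6 arrays were low. The signal on MDS/MPN replicate 2 was not well above background. A second Sult1a1 probe followed the first over the 10 arrays (Pearson r = 0.996), with -2.54 on the KO array of slide 1, against 5.25 on its WT array, and 4.11 and 3.07 on the MDS arrays.

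The difference between KO and WT in Sult1a1 was -7.91 on slide 1, a 240.4-fold lower signal on 1 KO array against 1 WT array, with no replicate. It was the 5th most negative of 22436 differences on that slide. The mixed KO array of slide 2 was 4.298-fold lower than the WT array beside it. The 6 single-mouse KO arrays of slide 2 averaged 0.12 ± 3.02 (SD, n = 6), against 0.68 on the WT array, a difference of -0.56 ± 2.50 (SE), so that their spread was larger than the difference. Their SD exceeded that of 99.94% of the 18407 features well above background there. KO arrays lay below the WT array of their slide in 6 of 8 cases, and the MDS arrays were the 2 exceptions.

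Gstm2, a mu-class transferase, had its highest signal on the WT array of slide 1 and was far lower on every other array, the WT array of slide 2 among them. On slide 1 it stood at -1.86 on the KO array, against 4.97 on the WT array, or 21.69 against 2962 intensity units. On slide 2 it stood at -0.07, -3.15 and 0.39 on the MDS/MPN arrays, -0.70 and -0.88 on the MDS arrays, -0.24 on the undetermined array and -1.60 on the mixed array, against 0.74 on the WT array. All 8 KO arrays were below both WT arrays. Over all 22371 features, 2.74% had this order, and Gstm2 was the only one of the 8 genes that had it, which is a description because the fall in KO chose it. The second probe gave -1.59 on the KO array of slide 1, against 4.31 on the WT array (r = 0.984 with the first), while its other probe was well above background on the WT array of slide 1 alone, at 0.90.

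The KO signal of Gstm2 was 113.8-fold lower than WT on slide 1 (a log2 difference of -6.83, the 11th most negative) and 5.066-fold lower on the mixed array of slide 2. The 6 single-mouse KO arrays averaged -0.77 ± 1.25 (SD, n = 6), against 0.74 on the WT array, a difference of -1.51 ± 1.08 (SE). All 7 KO arrays of slide 2 were below its WT array, an order shown by 11% of all features. In Gstm2 the MDS arrays lay within the range of the MDS/MPN arrays, which in Sult1a1 they did not. In bulk RNA of this kind, fewer cells that carry a transcript and less of it per cell cannot be told apart.

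**Figure D1:**
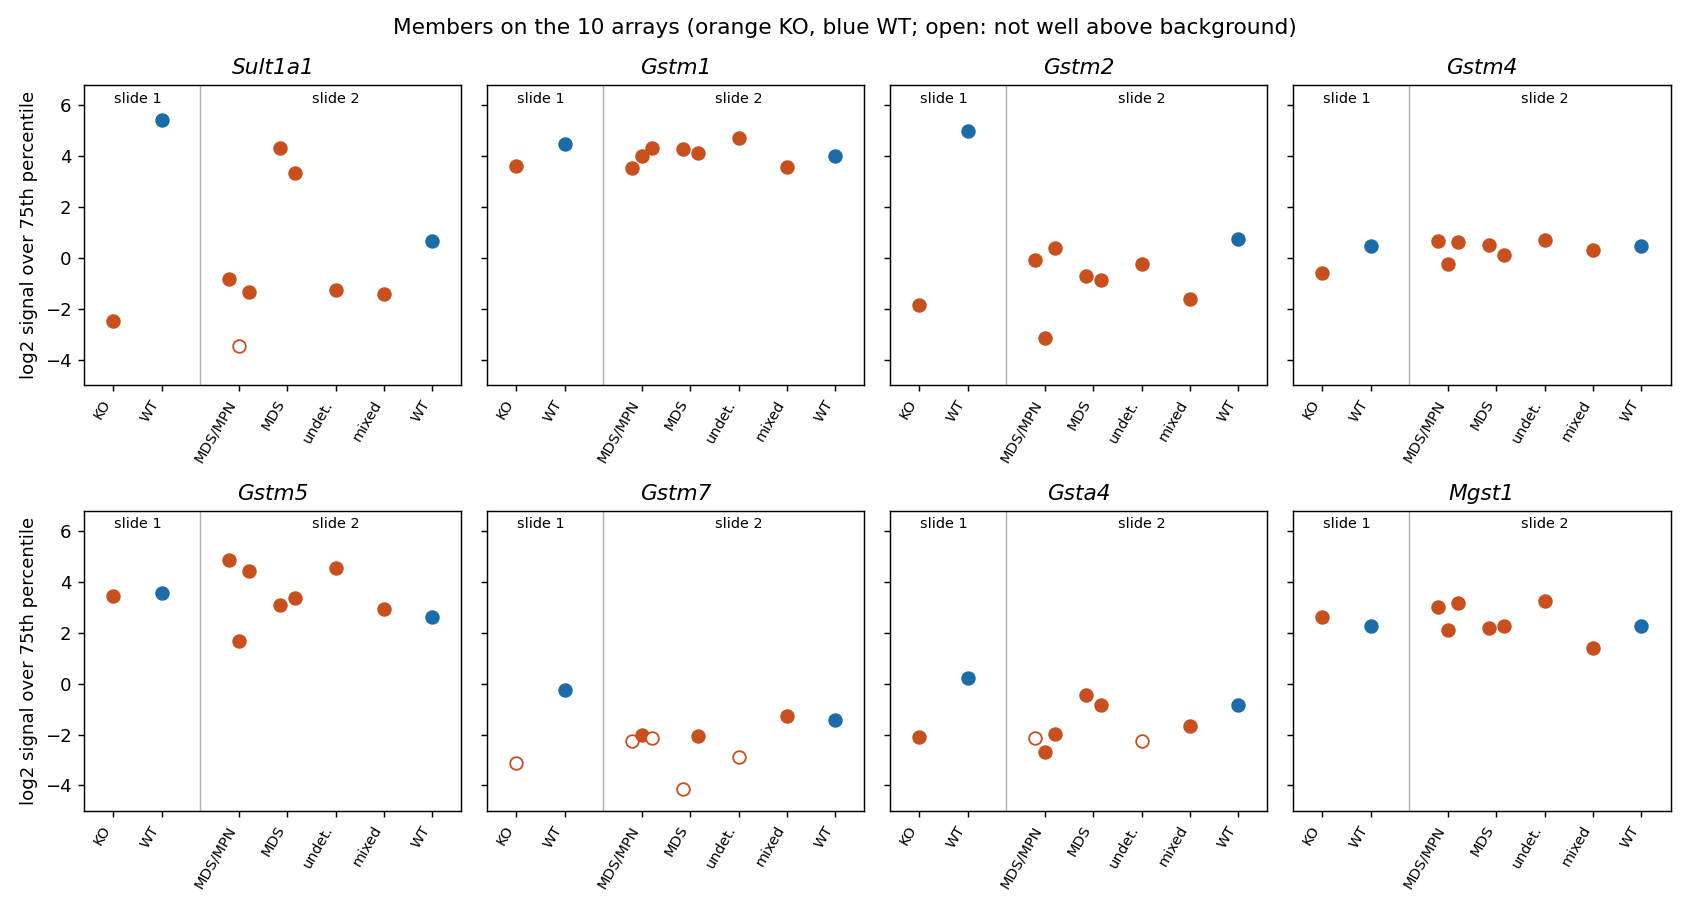
Level of each of the 8 genes on the 10 arrays (vertical axis, log2 of intensity over the 75th percentile of the array), with slide 1 left of the grey line and slide 2 right of it, KO orange and WT blue, 1 point per array, and open points for signals not well above background. Sult1a1 was high on the 2 MDS arrays (4.31 and 3.33) and on the WT array of slide 1 (5.43), whereas Gstm2 was high on the WT array of slide 1 alone (4.97).

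Among the 8 genes, the WT arrays differed most in the same 2. The WT array of slide 1 was 26.95-fold higher than that of slide 2 in Sult1a1 and 18.75-fold higher in Gstm2, with 1 array on each side and no test. Of the 8 genes, 4 were at least 2-fold higher on the WT array of slide 1, the other 2 being Gstm7 (log2 difference 1.19) and Gsta4 (1.07), against 14.1% of all features. The count includes Sult1a1 and Gstm2, whose choice for a fall from WT favours a high WT signal, so nothing is read from it for them. Of the relatives, Gstm7 and Gsta4 alone were past this fold. None of the 8 was at least 2-fold lower, against 9.91% of features. Gstm4 (-0.01) and Mgst1 (0.01) were level between the WT arrays. Set against the WT array of slide 1, which is the 9-12 month control in the value table, the 6 single-mouse KO arrays had differences of -5.31 in Sult1a1 and -5.74 in Gstm2, against -0.56 and -1.51 with the WT array of their own slide.

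Gsta4 followed Sult1a1 at a smaller scale. On slide 1 it stood at -2.11 on the KO array, against 0.22 on the WT array. The slide 2 levels of Gsta4 were -2.12, -2.68 and -1.96 on the MDS/MPN arrays, -0.43 and -0.83 on the MDS arrays, -2.27 on the undetermined array and -1.67 on the mixed array, against -0.85 on the WT array. The MDS arrays and the WT arrays were again the 4 highest, and the signals of MDS/MPN replicate 1 and of the undetermined array were not well above background. Gsta4 was 5.043-fold lower on the KO than on the WT array of slide 1. Across the 10 arrays Sult1a1 and Gsta4 had r = 0.95 and Spearman's rho = 0.81, and Gsta4 was 3rd of 12963 genes in its likeness to Sult1a1. Since 3 arrays stood apart as high, r was also taken over the other 7, where it was 0.85, and without the 2 arrays farthest from the median of Sult1a1 it was 0.88. These are descriptions with no p value, and the arrays share their slides and the scaling.

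Gstm7, another mu-class gene, had a signal well above background on 5 arrays, both WT arrays among them. On slide 1 it stood at -3.10 on the KO array, not well above background, against -0.24 on the WT array, which makes the KO signal at least 7.252-fold lower. That bound takes, for the dim array, the higher of its own signal and the lowest signal well above background. The slide 2 levels of Gstm7 were -2.24, -2.01 and -2.15 on the MDS/MPN arrays, -4.14 and -2.06 on the MDS arrays, -2.87 on the undetermined array and -1.27 on the mixed array, against -1.43 on the WT array. The mixed array was the only KO array above the WT array of its slide. Of these KO signals, those of MDS/MPN replicate 2, MDS replicate 2 and the mixed array were well above background, and the order among the rest carries no information.

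Gstm1, one of the abundant mu-class enzymes of liver, was the most even of the 8 genes, with a range of 1.19. It stood at 3.61 on the KO array of slide 1, against 4.49 on the WT array. On slide 2 the KO arrays ran between 3.52 and 4.71, against 3.99 on the WT array, so the genotypes overlapped. Gstm4 was nearly as even. It stood at -0.58 on the KO array of slide 1, against 0.45 on the WT array (2.046-fold lower), and at -0.25 to 0.69 on the KO arrays of slide 2, against 0.46 on the WT array. Its second probe agreed less well than those of the other genes (r = 0.696).

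Gstm5 and Mgst1 were high on the same arrays. Gstm5 stood at 3.46 on the KO array of slide 1, against 3.56 on the WT array. The slide 2 levels of Gstm5 were 4.87, 1.69 and 4.44 on the MDS/MPN arrays, 3.10 and 3.38 on the MDS arrays, 4.56 on the undetermined array and 2.95 on the mixed array, against 2.61 on the WT array. MDS/MPN replicates 1 and 3 and the undetermined array were highest, and MDS/MPN replicate 2, the array with the high 75th percentile, was lowest. Mgst1 stood at 2.62 on the KO array of slide 1, against 2.26 on the WT array, and at 3.01, 2.10 and 3.17 on the MDS/MPN arrays, 2.17 and 2.25 on the MDS arrays, 3.25 on the undetermined array and 1.41 on the mixed array, against 2.25 on the WT array of slide 2. The highest 3 arrays were the same as for Gstm5. Across the 10 arrays the pair had r = 0.77 and rho = 0.89, and r = 0.84 without the 2 arrays farthest from the median of Gstm5. Markers of monocytes and macrophages were highest on the same 3 arrays. The mean log2 level of 7 such genes was 1.07 and 1.47 on MDS/MPN replicates 1 and 3, 1.40 on the undetermined array and at most 0.56 on the other arrays. That mean was lowest on the WT array of slide 1 (-2.14), where Gstm5 stood at 3.56. The mean of erythroid markers was also high on these 3 arrays (3.32, 2.79 and 4.17), against 2.62 and 2.84 on the MDS arrays. The part of either cell type in the Gstm5 and Mgst1 signals was not tested.

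Set together on slide 1, 5 of the 8 genes were at least 2-fold lower on the KO array, where 12.2% of all features were, and none was at least 2-fold higher, against 12.9% of features. The count includes the 2 genes chosen for this contrast, and nothing is read from it for them. Of the 6 relatives, Gstm7, Gsta4 and Gstm4 were past this fold, whereas Gstm1 (-0.88), Gstm5 (-0.09) and Mgst1 (0.36) were not. On slide 2 the mixed KO array was at least 2-fold below WT in Sult1a1 and Gstm2 alone, 2 of 8, against 4.35% of features. Both had been chosen for falls on KO arrays, so nothing is read from this count for them, and none of the 6 relatives was past this fold. None of the 8 was at least 2-fold above WT there, against 4.51% of features.

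**Figure D2:**
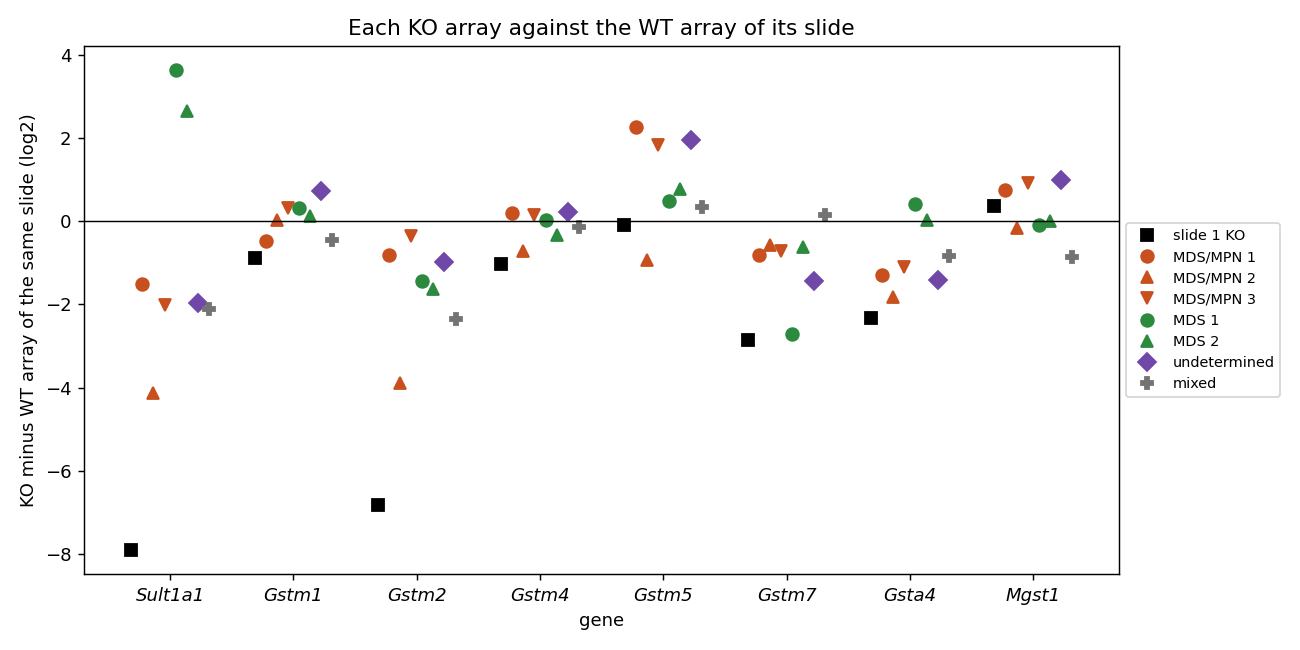
Log2 level of each KO array minus that of the WT array of its slide (vertical axis), for each of the 8 genes (horizontal axis), with 1 symbol per KO array. Sult1a1 and Gstm2 were far below 0 on slide 1 (-7.91 and -6.83), the 2 MDS arrays were above 0 in Sult1a1, and all 8 KO arrays were below 0 in Gstm2.

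With the slide as a block, limma over all 10 arrays and 22371 features called 3 of them between KO and WT at an adjusted p of 0.05 (0.0134%), 1 higher and 2 lower, and none of the 8 genes was among them. Of the 6 relatives, Gsta4 had a difference of -1.40 ± 0.61 (SE; limma adjusted p = 0.8812) and Gstm7 of -1.65 ± 0.69 (limma adjusted p = 0.85). Gstm7 entered the test through WT alone, with 3 of 8 KO and 2 of 2 WT arrays well above background, so its value rests largely on KO signals near background. The differences of Gstm4 (-0.43 ± 0.36), Gstm1 (-0.27 ± 0.39), Gstm5 (0.58 ± 0.78) and Mgst1 (0.28 ± 0.50) were all close to or within their SE. Sult1a1 had -3.37 ± 2.11 and Gstm2 had -3.52 ± 1.11, given with no test. The difference was negative in 6 of the 8 genes, with a median of -0.91. Over all features 46.71% of differences were negative, with a median of 0.04. The count and the median of the 8 genes rest in part on the 2 genes chosen for their falls and on Gstm7.

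Within slide 2, limma called 115 of 19597 features between the 6 single-mouse KO arrays and the WT array (0.587%), 1 higher and 114 lower, and none of the 8 genes. The WT side is 1 array, which the fit takes to vary like the KO arrays. Gstm7 entered this comparison through that WT array alone, with 2 of the 6 KO arrays well above background, so its value rests largely on KO signals near background. The relatives had differences of -1.15 ± 0.76 (Gstm7), -0.87 ± 0.81 (Gsta4), -0.07 ± 0.47 (Gstm4), 0.17 ± 0.48 (Gstm1), 0.41 ± 0.57 (Mgst1) and 1.07 ± 1.04 (Gstm5), each with a limma adjusted p of 0.9999. The difference on slide 2 was less negative or more positive than that on slide 1 in all 8 genes, by 7.35 in Sult1a1, 5.32 in Gstm2, 1.71 in Gstm7, 1.47 in Gsta4 and 0.04 to 1.16 in the other four. Of all features in this contrast, 62.8% had a change of the opposite sign. Over all 23307 features the median of this change was -0.23, and limma called none (0%), with 564 higher and 607 lower at an unadjusted p below 0.05. Of the 4 groups in this contrast, 3 hold 1 array each, and the spread comes from the 6 KO arrays of slide 2 alone, so that a lack of calls among the 6 relatives says little. For Sult1a1 and Gstm2 the change is a description, since slide 1 chose them.

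The comparison between the KO diseases addresses whether the 2 diagnoses differ, with 3 and 2 arrays on the same slide. Sult1a1 averaged -1.88 ± 1.40 (SD, n = 3) on MDS/MPN arrays and 3.82 ± 0.70 (SD, n = 2) on MDS arrays, a difference of -5.70 ± 0.85 (SE) or 51.96-fold. It was well above background on 2 of the 3 MDS/MPN arrays. The groups did not overlap, and under the alternative settings the difference ran between -6.23 and -4.16. The low MDS/MPN signals took part in the choice of Sult1a1 for its fall on KO arrays, so the difference is a description with no test. Over 20727 features limma called none in this comparison (0%), although 310 were higher and 612 lower at an unadjusted p below 0.05.

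Gsta4 was next among the 8 genes, with -2.25 ± 0.38 (SD, n = 3) on MDS/MPN arrays and -0.63 ± 0.28 (SD, n = 2) on MDS arrays, a difference of -1.62 ± 0.38 (SE; limma adjusted p = 0.9914). Sult1a1 and Gsta4 were the 2 of 8 genes with every MDS/MPN array below every MDS array, an order found in 12% of all features, and no gene had the opposite order, found in 7.75%. Gstm2 did not separate the diseases, at -0.94 ± 1.93 (SD, n = 3) on MDS/MPN arrays and -0.79 ± 0.13 (SD, n = 2) on MDS arrays. The differences of the other five ran between -0.26 (Gstm1) and 0.96 (Gstm7), with limma adjusted p values up to 0.9996. Relative to the WT array of slide 2, Sult1a1 was 5.877-fold lower on average on MDS/MPN arrays and 8.842-fold higher on MDS arrays. The MDS, mixed and WT arrays lay in the first line of slide 2 and the MDS/MPN and undetermined arrays in the second, so disease and position on the slide cannot be told apart.

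Markers of stem cells moved with Sult1a1 and Gsta4. The mean log2 level of 17 stem cell genes was -0.65 on the KO array of slide 1, against 2.31 on the WT array. On slide 2 it was -0.64, -0.33 and -0.47 on the MDS/MPN arrays, 0.48 and 0.53 on the MDS arrays, -1.42 on the undetermined array and 0.22 on the mixed array, against 0.82 on the WT array. The 4 arrays with the most Sult1a1 and Gsta4 were also the 4 with the highest stem cell mean. Their summed linear level was 22.82 to 130.9 on KO arrays, against 125.7 to 339.3 on WT arrays, and all 17 genes were above background on at least 1 array. Of 16 tested, 0 were called between KO and WT by limma (lowest adjusted p 0.6097), with 0 positive and 16 negative differences and a median of -1.86. Among all features in this contrast, 46.71% had a negative difference. Tek had a clear signal on only 2 arrays, Mecom on 3, Clec1a, the gene with that lowest adjusted p, on 4, and Hoxb5 on 5. All of these entered the test through WT alone, and Ndn, clear on 5 arrays, may have done so. Entry by that route favours a negative sign, so the count of 16 is partly a result of the filter. The correlation with the stem cell mean over the 10 arrays was 0.89 for Gsta4, 0.78 for Sult1a1 and 0.67 for Gstm2, and over the 8 arrays of slide 2 it was 0.80, 0.60 and 0.02 in the same order of genes. The part of these cells in the signals was not tested.

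**Figure D3:**
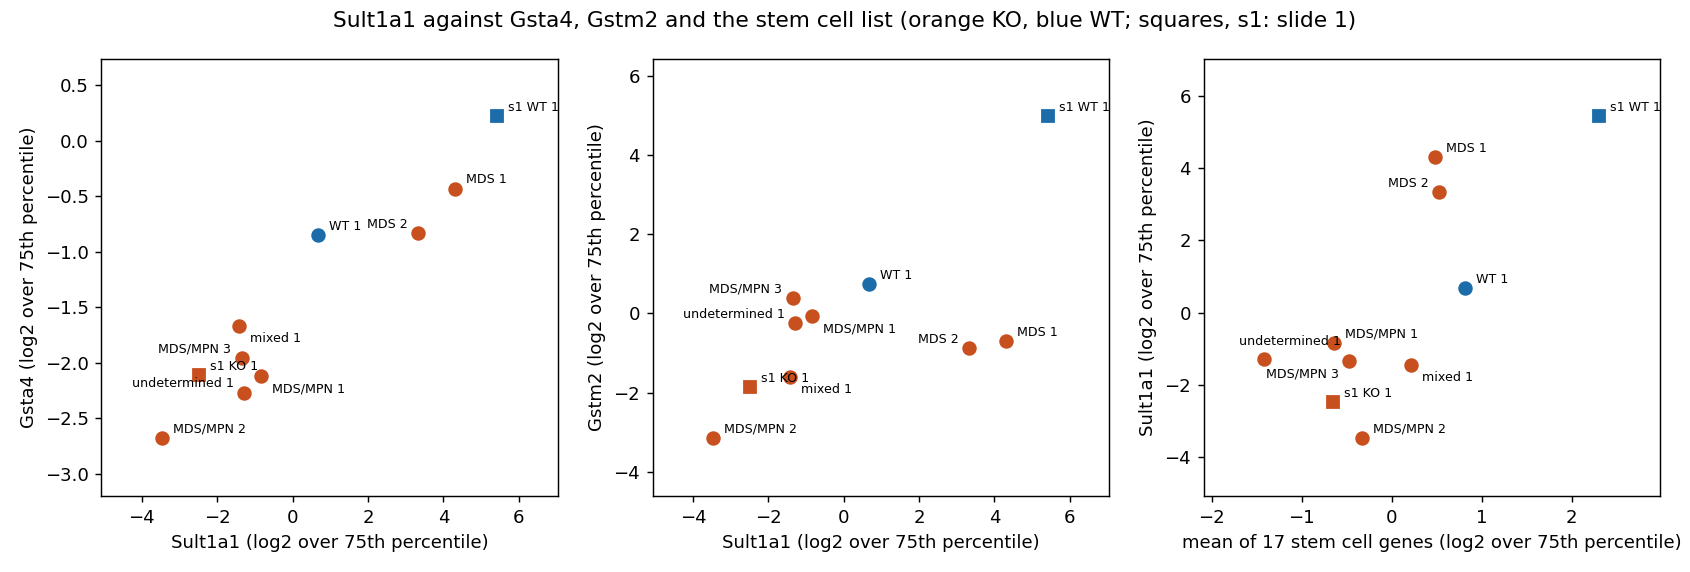
Sult1a1 against Gsta4 (left) and Gstm2 (middle), and the mean of 17 stem cell genes against Sult1a1 (right), 1 point per array, all axes in log2 of intensity over the 75th percentile of the array, with KO orange, WT blue and squares for slide 1. Gsta4 was high where Sult1a1 was high (r = 0.95), whereas the MDS arrays were high in Sult1a1 but not in Gstm2.

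Most lists of markers of other cell types had positive medians. The median KO minus WT difference was 2.69 for mast cell and basophil genes (7 of 8 tested), 2.01 for erythroid genes (9 of 10), 1.8 for neutrophil genes (10 of 10) and 1.78 for monocyte and macrophage genes (7 of 8), with 0 called in each. It was 1.55 for B cell genes and 0.70 for T and NK cell genes (4 of 8 tested in each), 0.02 for stromal and endothelial genes (6 of 9) and -0.16 for megakaryocyte genes (7 of 7), again with 0 called. Ncr1, Col1a1 and Cdh5 were among the markers above background on no array. Summed neutrophil signal was 829.9 to 4452 on KO arrays, against 326.5 to 1101 on WT arrays, and summed erythroid signal 82.07 to 593 on KO arrays, against 88.45 to 149.3 on WT arrays. The 2 genes of the sort gate, Kit and Ly6a (which encodes Sca-1), summed to 35.17 to 68.45 on KO arrays, against 56.75 to 68.81 on WT arrays. The part of other cell types in the signals of the 8 genes was not tested.

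The genes most like Sult1a1 over the 10 arrays, among 12956 other named genes, were Cyp26b1 (r = 0.978), Slc2a3 (r = 0.973), Trim47 (r = 0.951), Dupd1 (r = 0.943) and Fgfr3 (r = 0.941). Cyp26b1 is an enzyme that breaks down retinoic acid, Slc2a3 a glucose transporter and Fgfr3 a fibroblast growth factor receptor. Cyp26b1 stood at -5.12 on the KO array of slide 1, against 4.02 on the WT array, and at 1.13 and -0.35 on the MDS arrays, against -1.14 on the WT array of slide 2. It was well above background on 4 arrays and Dupd1 on 2, whereas the other three were so on all 10. Slc2a3 moved over a narrow range, at 2.39 on the KO array of slide 1, against 4.20 on the WT array, and 3.83 and 3.85 on the MDS arrays, against 3.45 on the WT array of slide 2. Over slide 2 alone these 5 correlations were 0.918 to 0.979.

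The genes most like Gstm2 were others: Ctf1 (r = 0.958), Anxa5 (r = 0.944), Tcf15 (r = 0.938), Pea15a (r = 0.926) and Tm4sf1 (r = 0.92). Ctf1 encodes the cytokine cardiotrophin-1, Anxa5 a protein that binds phosphatidylserine, and Tcf15 a transcription factor of the basic helix-loop-helix family. Ctf1 stood at -1.70 on the KO array of slide 1, against 0.23 on the WT array. Over slide 2 alone the correlation was 0.97 for Ctf1 and 0.64 for Tm4sf1, which was well above background on 2 arrays. Sult1a1 and Gstm2 themselves had r = 0.67 over the 10 arrays, rho = 0.67, and r = 0.50 without the 2 arrays farthest from the median of Sult1a1. Over the 8 arrays of slide 2 r was 0.33, and over the 7 arrays outside the high group of Sult1a1 it was 0.89.

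The mu-class genes were also compared along their cluster. On GRCm38.p6 the 5 Gstm genes of the set lie on chromosome 3 within 149.3 kb that hold 12 annotated genes, 7 of them protein-coding: Gstm5 (chr3:107895854-107898685), Gstm7 (chr3:107926334-107931877), Gstm6, Gstm3, Gstm2 (chr3:107981702-107986420), Gstm1 (chr3:108012250-108017973) and Gstm4 (chr3:108030571-108045179), in genome order. Sult1a1 lies on chromosome 7 (chr7:126672865-126690443), Gsta4 on chromosome 9 (chr9:78191966-78209349) and Mgst1 on chromosome 6 (chr6:138140527-138156755). Gstm5 is on the plus strand and the other 4 Gstm genes of the set on the minus strand.

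Along the cluster, the KO minus WT difference on slide 1 was -0.09 in Gstm5, -2.12 in Gstm3, -6.83 in Gstm2, -0.88 in Gstm1 and -1.03 in Gstm4. Gstm7 and Gstm6 were not well above background on the KO array, which makes their KO signals at least 7.252-fold and at least 11.87-fold lower than WT. Gstm5 and Gstm1 were the nearest to 0. For the 6 single-mouse KO arrays of slide 2, the mean difference was 1.07 in Gstm5, -1.15 in Gstm7, 0.33 in Gstm3, -1.51 in Gstm2, 0.17 in Gstm1 and -0.07 in Gstm4. Gstm7 was well above background on 2 of these 6 arrays, and Gstm6 has no value there because the WT array of slide 2 did not measure it well above background. The mu-class genes are close in sequence, and how far a probe of 1 gene also binds RNA of another is uncertain, because the probe sequences are not in the files used here.

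**Figure D4:**
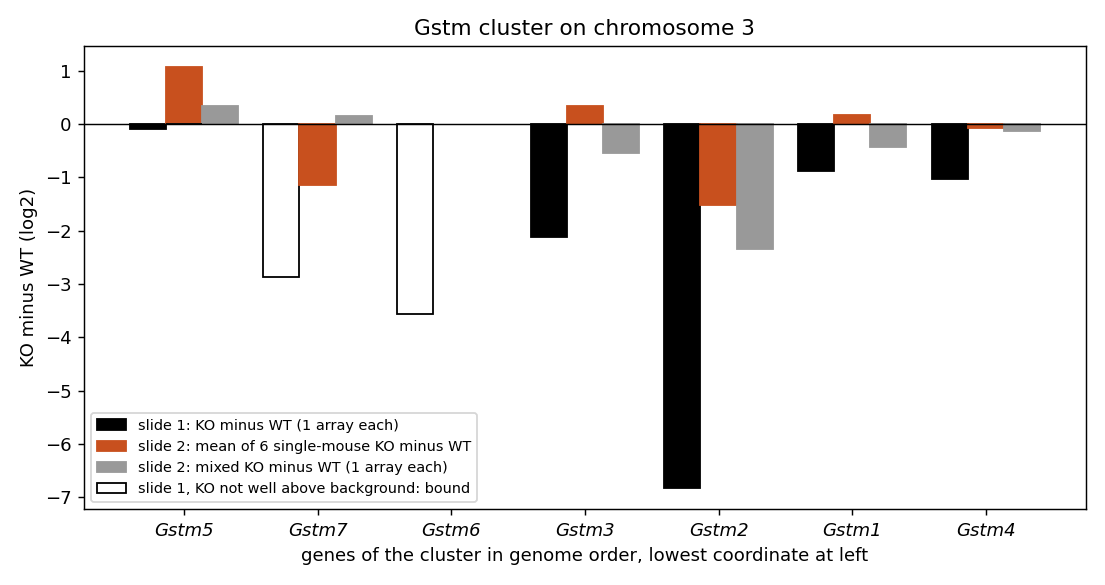
KO minus WT difference in log2 level (vertical axis, bars from 0) for the 7 protein-coding genes of the mu-class cluster in genome order, for slide 1 (black), the mean of the 6 single-mouse KO arrays of slide 2 (orange) and the mixed KO array (grey), without error bars. Open bars are bounds for Gstm7 and Gstm6, whose KO signal on slide 1 was not well above background, and Gstm6 has no bars for slide 2. Gstm2 had the lowest bar on slide 1 (-6.83), whereas Gstm5 at the left end was at -0.09 there and at 1.07 on slide 2.

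No gene of 5 other lists of the conjugation pathway passed the test between KO and WT. Among 17 other sulfotransferases and genes of PAPS supply, 7 were tested between KO and WT over all arrays, with 0 called, 4 positive and 3 negative differences and a median of 0.00. Sult1b1, Sult1c1, Sult1c2, Sult1e1, Sult2a1, Sult3a1, Sult5a1 and Sult6b1 were above background on no array. Papss2, which makes PAPS, had the largest difference, 2.20 ± 0.75 (SE; limma adjusted p = 0.6693). It stood at 1.32 on the KO array of slide 1, against -0.87 on the WT array, and at 1.64, 1.94 and 2.32 on the MDS/MPN arrays, 2.14 and -0.01 on the MDS arrays, 1.36 on the undetermined array and -0.52 on the mixed array, against -0.95 on the WT array of slide 2. Every KO array was thus above both WT arrays in Papss2, which is a description because the size of its difference chose it from its list. How many of all features had this order was not counted. Bpnt1, which removes the spent donor PAP, had a difference of 0.16 ± 0.34.

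Of 23 other glutathione transferases and related genes, 19 were tested, with 0 called, 10 positive and 9 negative and a median of 0.01. The related genes include Ptges, Eef1g, Clic1 and Gstcd. By the fitted values the 2 genes to name were Gstm6 (-2.51 ± 0.79, limma adjusted p = 0.6384) and the theta-class enzyme Gstt1 (-2.21 ± 0.71, limma adjusted p = 0.6547). Gstm6 was well above background on 1 of 8 KO and 1 of 2 WT arrays and was tested through WT alone, so its fitted value rests mostly on signals at background. Gstt1 stood at 0.77 on the KO array of slide 1, against 3.80 on the WT array. On slide 2 it stood at 0.77, -0.93 and 2.40 on the MDS/MPN arrays, 0.56 and 0.08 on the MDS arrays, 0.61 on the undetermined array and 0.30 on the mixed array, against 2.29 on the WT array. MDS/MPN replicate 3 was the only KO array above the WT array of its slide.

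Of 20 genes of glutathione synthesis and reduction, 17 were tested, with 0 called, 9 positive and 8 negative and a median of 0.13. Chac1, which degrades glutathione, had 1.08 ± 1.34, and Gpx8, a peroxidase of the endoplasmic reticulum, had -1.83 ± 1.36 but was well above background on 2 of 8 KO and 1 of 2 WT arrays. Of 21 regulators and targets of NRF2 and of the aryl hydrocarbon receptor, 19 were tested, with 0 called, 11 positive and 8 negative and a median of 0.09. Tiparp, a target of the aryl hydrocarbon receptor, had -1.45 ± 0.49 (limma adjusted p = 0.6693), and Srxn1, a target of NRF2 that repairs oxidised peroxiredoxins, had -1.29 ± 0.43 (limma adjusted p = 0.663). Of 9 efflux pumps, 8 were tested, with 0 called, 4 positive and 4 negative and a median of -0.16, the 2 named by fitted value being -1.06 ± 0.57 in Abcb1a, which was well above background on 1 of 8 KO and 1 of 2 WT arrays, and -0.59 ± 0.89 in Abcc3. Over all features tested, the median was 0.04 in the same contrast.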

How the data were processed

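Each of 8 KO and 2 WT samples was hybridised to its own array. The deposited scanner files hold a processed intensity per spot, made with Feature Extraction 10.7.1.1 per the file headers (9.1 per the submitters' processing notes), with local background subtracted and no scaling between arrays. In the value table, the deposited numbers are a ratio: they were found to equal that intensity over the 75th percentile of its array, with the time labels of 4 columns exchanged against the scanner files. Its direction and centring follow from that match.

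Values were log2(intensity) minus the log2 75th percentile of the array. Control and outlier spots were left out, spots of 1 probe were averaged and the brightest probe stood for a gene. Probes were named by RefSeq accession through GRCm38.p6, which matched 27656 of 29123 probes with an accession to 1 symbol. Positions and start-site windows are on GRCm38.p6, whereas the array annotation in the file headers is on mm9. A feature was tested when well above background on at least 50% of the arrays of 1 compared group. Tests used limma 3.58.1 (R 4.3.3) with Benjamini-Hochberg adjustment over all features and a threshold of 0.05, after a check on simulated data. Tables and figures were made with Python 3.11.15, pandas 2.3.3 and matplotlib 3.10.9.

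KO was set against WT over all arrays with slide as a block and within slide 2. MDS/MPN was set against MDS, and the KO difference of slide 2 against that of slide 1. Alternatives changed the normalization, background correction, filter, probe, variance model, value source, slide block and samples. Raw signal was taken as the spot median for normexp, with an offset of 50, in place of a spot mean. The genes, the lists of related genes and cell markers, and the rules were chosen with earlier results of these data known. Beside the 8 genes, the text names the 5 genes most correlated with Sult1a1 and with Gstm2 and, of each of 5 pathway lists, the 2 with the largest KO difference, none being called. Precision is limited by how few arrays there are.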

Additional observations from a re-analysis of the deposited data

Results flagged for a closer look

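Gstm2 on the array of MDS/MPN replicate 2 lay far below the other single-mouse KO arrays of slide 2, at -3.15 against -0.88 on the next lowest of the 6. That gap was 0.642 of the whole range of the 6 arrays. The 8 genes were each looked at in this way, and chance marks about 1 in 20 such groups. This array also had the 75th percentile of 301.7 intensity units and the lowest Sult1a1, Gstm5 and Gsta4 levels, and its part in the Gstm2 value was not tested.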

How the results depend on the processing

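Over the 8 genes and 4 comparisons, 32 differences were followed, and none was called by limma under any setting, while 10 changed sign under at least 1. The 3 features called between KO and WT over all arrays became 0 with normexp (407 higher and 413 lower at an unadjusted p below 0.05), with the filter on every array (349 and 154), with no filter (433 and 911) and with trend and robust (496 and 722). They became 182 with slide 2 alone, and 0 to 177 when 1 array was left out, with 177 without the WT array of slide 1, 154 without its KO array and 12 without the WT array of slide 2. Within slide 2 the 115 became 247 with quantile normalization, 182 with the mixed array added, 50 with no filter and 0 with normexp (144 and 320), the filter on every array (138 and 75) and trend and robust (286 and 552), and 0 to 215 without 1 array, with 0 without MDS replicate 1 or MDS/MPN replicate 3, 4 without MDS replicate 2, 12 without the undetermined array and 215 without MDS/MPN replicate 2. The change between slides had 191 calls with quantile normalization and 0 otherwise. The cause was not tested.

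Without 1 array, the KO minus WT difference over all arrays ran between -7.91 and -0.78 in Sult1a1, -6.83 and -1.63 in Gstm2, -0.88 and 0.08 in Gstm1, and -0.09 and 0.96 in Gstm5. The first value of each pair is without the WT array of slide 2, and the second without an array of slide 1. With slide 2 alone, Gstm2 was at -1.63 and Gstm1 at 0.08. Within slide 2, the WT array of slide 1 gave -5.31 in Sult1a1, -5.74 in Gstm2 and -0.32 in Gstm1, and Sult1a1 was at 0.13 with normexp and 0.16 without MDS/MPN replicate 2. Gstm4 was at 0.28 with the median probe and between -0.13 and 0.06 without 1 array. For MDS/MPN minus MDS, Gstm2 was at 0.06 with the median probe and between -0.82 and 0.95 without 1 array, Gstm4 at -0.01 with normexp and between -0.16 and 0.33, Gstm5 between -0.18 and 1.41, and Gstm7 between -0.08 and 1.01. For the change between slides, Mgst1 was at -0.03 with the median probe, -0.14 with the mixed array and between -0.08 and 0.15 without 1 array. No paired analysis was possible because the replicate numbers are in accession order and mark no shared mouse or batch. Signals near background, as in Gstm7, limit how far a fold can be read.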
